A study of Homo sapiens with 6 samples.

Results

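The chaperone mRNAs described here are the transcripts of 10 genes chosen by name: HSPA8, DNAJA1, DNAJB1, HSP90AA1, HSP90AB1, HSPB1 and CCT2, which act mainly in the cytosol, and HSPA9, HSPD1 and HSPE1, which act in the mitochondrial matrix. Each gene was represented by 1 RefSeq transcript, of 15739 transcripts in the data. The libraries came from U2OS, a human osteosarcoma cell line, and counted the nucleotides at which reverse transcriptase (RT) stopped on fragmented poly(A)-selected mRNA. There was 1 library for each of 6 conditions and no replicate. For 2 libraries RNA without dimethyl sulfate (DMS) was reverse transcribed in 150 mM K+ or 150 mM Na+ according to the labels. A further pair came from RNA refolded and modified with DMS in vitro in K+ or Li+, and the last pair from living cells treated with 8% DMS for 5 min, either unstressed in full medium or starved in a balanced salt solution for 2 h. These 4 DMS libraries were all reverse transcribed in 150 mM K+. The K+ and Na+ labels of the libraries without DMS contradict the names of their files, and the methods name Li+ instead of Na+ for this reaction, so these libraries are called by their labels throughout.

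Chaperones bind proteins that are not yet folded or have lost their fold. HSP70 proteins such as HSPA8 and mitochondrial HSPA9 hold short hydrophobic stretches and release them in a cycle driven by ATP, to which J-domain partners such as DNAJA1 and DNAJB1 deliver clients. HSP90 proteins act later, on clients such as kinases and steroid receptors, while the barrel-shaped chaperonins, made of HSPD1 with its lid HSPE1 in mitochondria and of CCT subunits in the cytosol, enclose a folding chain. The genes for several of these proteins are targets of HSF1, the heat shock transcription factor. In DMS probing the reagent methylates unpaired A and C, and RT stops there. RNA G-quadruplexes (rG4s), stacks of guanine quartets that K+ stabilizes, stop RT at G without any DMS. According to the paper, DMS also methylates N7 of any G that is free of quartets, and RT then stalls less at rG4 regions.

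The listed stops summed to between 12999691 in unstressed cells and 35371061 in the library labelled K+, with 24014417 in starved cells. Markers of mesenchymal cells (VIM, COL1A1, SPARC, FN1 and CD44) were present in each library, though COL1A1, SPARC and FN1 were lower in starved cells (126, 303 and 72.1 stops per 1000000 listed stops, SPM) than in unstressed cells (687, 1206 and 244), whereas EPCAM was at most 2.3 SPM and PTPRC and ALB were at 0. The number of stops of an mRNA follows its amount, its modification and the part of it that can be mapped, and in bulk RNA fewer cells with an mRNA and less of it per cell cannot be told apart. Intervals below are 95% counting intervals and say nothing of variation between cultures, so no p-value is given. In starved cells the 10 mRNAs had between 1.11 (DNAJB1) and 45.7 stops per nucleotide, so that all passed the minimum of 1 stop per nucleotide in both in vivo libraries that 1358 transcripts met.

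The guanine-rich stretches of DNAJB1 and HSPD1 carried the largest difference between the libraries without DMS, and are shown first. Each line gives 30 nt of the mRNA strand from GRCh37 (hg19), ending at a strong stop, which is the capital.
HSPD1 position 1849, coding, chr2:198351780-198351809, minus strand: gggtggaatgggaggtggtatgggaggtgG
DNAJB1 position 1170, 3′ UTR, chr19:14626645-14626674, minus strand: ccatgagagggtgggagggcccagggaggG
DNAJB1 position 2096, 3′ UTR, chr19:14625719-14625748, minus strand: aagaaatcttggggagggaaggggagttgG
HSP90AB1 position 2416, 3′ UTR, chr6:44221463-44221492, plus strand: gtccttgtgttgaaggcagtaaactaaggG
The HSPD1 stop lies in exon 12 at codon 571, in the repeat of glycine and methionine that ends this protein. The HSP90AB1 stretch is shown for contrast, since it stopped RT about equally in both libraries and holds no motif of 4 G runs.

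Of the chaperone mRNAs, 3 took a share of stops at least 1.5-fold higher in starved than in unstressed cells (HSP90AA1, HSPE1 and CCT2) and 3 a share at least 1.5-fold lower (HSPB1, DNAJB1 and HSP90AB1). Among all tested transcripts, 29.3% were higher and 35.3% lower by this rule, so neither count stands apart from the background. The median log2 ratio was 0.13 over the 10 mRNAs and -0.06 over all tested. Within the group the ratios spanned 4.75-fold lower to 2.01-fold higher.

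**Figure D1:**
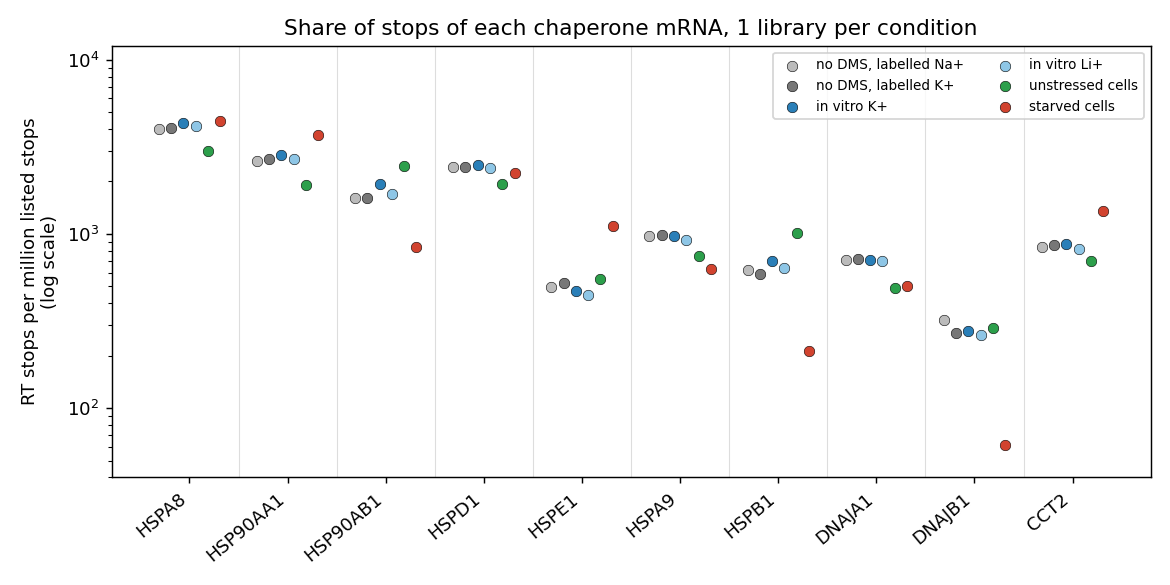
RT stops of each chaperone mRNA per 1000000 listed stops (log scale) in the 6 libraries, 1 point per library. The points of the 4 libraries other than the in vivo pair lie close together for each mRNA, while starved cells fall far below unstressed cells for HSPB1 (213.7 against 1016) and DNAJB1 (61.4 against 289.1).

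HSPA8, the constitutive HSP70 of the cytosol (chr11:122928197-122932844, minus strand, GRCh37), had the most stops of the group in each library. Its share was 4018 and 4072 SPM in the libraries labelled Na+ and K+, 4345 and 4165 in vitro in K+ and Li+, 2982 in unstressed cells and 4455 in starved cells. The unstressed library was thus the low one and the starved library lay near the other 4. The in vivo fold was 1.49 (1.48 to 1.51), just under the 1.5-fold threshold. With counts under 3 rebuilt and at equal depth it passed this threshold, at log2 ratios of 0.68 and 0.74. Of its 25-nt stretches 54.5% also occur in other genes, such as the pseudogene HSPA8P1.

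The J-domain partners behaved unlike each other. DNAJA1 (chr9:33025271-33039905, plus strand) had 710.1 and 719.3 SPM in the libraries labelled Na+ and K+ and 708.0 and 700.9 after refolding in K+ and Li+, then 486.6 in unstressed and 504.7 in starved cells. Both in vivo values were low and close to each other, with a log2 ratio of 0.05 (0.01 to 0.10) that was 0.38 at G and U only and -0.16 in the last 500 nt. DNAJB1 (chr19:14625581-14629209, minus strand), the partner that HSF1 induces on heat shock, had 322.4, 269.7, 277.3 and 264.3 in the same order, 289.1 in unstressed cells and 61.4 in starved cells. Only the starved library was low, by 4.71-fold (4.43 to 5.00), on 1475 stops.

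The paralogous HSP90 mRNAs moved apart. HSP90AA1, the stress-inducible HSP90 (chr14:102547079-102553381, minus strand), had 2613 and 2684 SPM without DMS, 2821 and 2689 in vitro, 1907 in unstressed and 3689 in starved cells. Unstressed cells were the lowest and starved cells the highest of the 6 libraries, 1.94-fold apart (1.91 to 1.96). HSP90AB1, the constitutive HSP90 (chr6:44214838-44221620, plus strand), ran the other way, with 1607 and 1614 without DMS, 1922 and 1694 in vitro, 2464 in unstressed and 841.3 in starved cells. Here unstressed cells were highest and starved cells lowest, 2.93-fold apart (2.88 to 2.98). Only 62.5% of the HSP90AB1 and 68.5% of the HSP90AA1 nucleotides were listed in any library, and both share many of their 25-nt stretches with other genes (51.5% and 46.1%), most of all with the pseudogenes HSP90AB3P (1021 stretches) and HSP90AA2P (1079). In HSP90AA1 no nucleotide before position 709 of 3864 was listed. The first 652 nt of this RefSeq transcript lie outside the annotated transcript it was matched to.

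HSPB1, a small heat shock protein that holds unfolded clients without ATP (chr7:75931990-75933609, plus strand), was also far lower in starved cells. It had 622.9 and 585.0 SPM without DMS, 697.9 and 635.2 in vitro, 1016 in unstressed and 213.7 in starved cells, again with unstressed cells highest and starved cells lowest. The difference was 4.75-fold, a log2 ratio of -2.25 (-2.30 to -2.20), within the interval of DNAJB1 (-2.32 to -2.15). Their order turned with the processing, since at equal depth DNAJB1 was at -2.65 and HSPB1 at -2.23, and with counts under 3 rebuilt at -1.69 and -2.06. CCT2, a subunit of the cytosolic chaperonin (chr12:69979239-69995350, plus strand), shared no 25-nt stretch with another gene. Its share was 841.1 and 859.1 without DMS, 880.8 and 820.6 in vitro, 699.7 in unstressed and 1350.5 in starved cells, a 1.93-fold difference (1.89 to 1.98).

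The mitochondrial mRNAs did not move together. HSPA9, the mitochondrial HSP70 (chr5:137889445-137911090, minus strand), had 971.0 and 979.9 SPM without DMS, 972.6 and 921.9 in vitro, 747.8 in unstressed and 625.5 in starved cells, so that both in vivo libraries were low. Their log2 ratio of -0.26 was 0.09 at G and U only, so its direction turned. HSPD1, the mitochondrial chaperonin (chr2:198351308-198364564, minus strand), had 2421 and 2412, then 2471 and 2375, then 1924 and 2228 in the same order. Its in vivo difference was 1.16-fold (1.14 to 1.18), and the share of its 25-nt stretches found in other genes was the highest of the group (58.6%). HSPE1, the lid of the same chaperonin and its neighbour on the chromosome (chr2:198365103-198368173, plus strand), had 497.1 and 520.7 without DMS, 472.3 and 445.3 in vitro, 548.7 in unstressed and 1105 in starved cells. Starved cells stood alone at 2.01-fold (1.96 to 2.07). For HSPE1 only 340 of 939 nt were listed, and 56.7% of its 25-nt stretches also occur in other genes, such as HSPE1-MOB4 and pseudogenes.

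Per kilobase of listed sequence HSPE1 and HSPA8 ranked first and second in starved cells, at 3249 and 1984 SPM, while HSPE1 and HSP90AB1 led in unstressed cells at 1614 and 1549. DNAJB1 had the lowest level in each of the 6 libraries, with 158.1 in unstressed and 33.6 in starved cells. Among the mitochondrial mRNAs the order in starved cells was HSPE1, HSPD1 (985.9) and HSPA9 (215.6).

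The ratio of shares went with base composition. Over all 1358 tested transcripts the log2 ratio had a Pearson r of -0.69 and a Spearman rho of -0.69 with the GC content, a description over transcripts that share the same libraries. Over 10 groups of equal size by GC content, the median log2 ratio ran from 0.84 in the group with the lowest GC content (30.7 to 38.7%) to -1.43 in that with the highest (58.7 to 69.9%). HSPB1, at 65.3% GC, and DNAJB1, at 52.8%, are the mRNAs richest in GC of the group, and HSPE1, at 39.3%, the poorest. The part of base composition in these ratios was not tested.

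**Figure D2:**
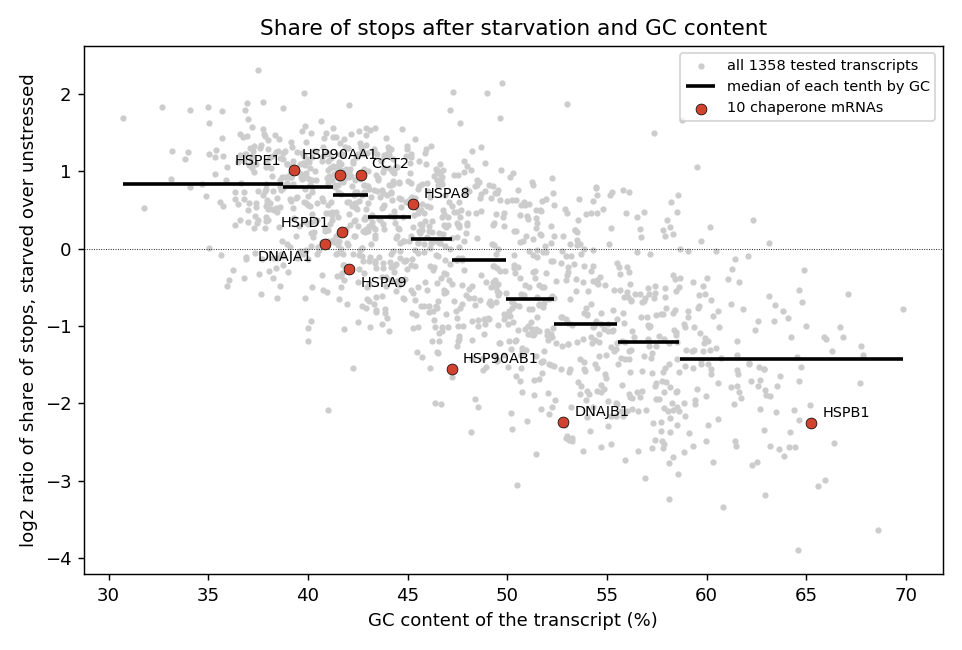
Log2 ratio of the share of stops, starved over unstressed, against GC content for 1358 tested transcripts (grey), with the median of each of 10 groups by GC content (bars) and the chaperone mRNAs (red). HSP90AB1 lies 1.55 below 0 and far under its bar, whereas HSPE1, HSP90AA1 and CCT2 lie just above theirs.

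Relative to the median of transcripts of like GC content, 5 of the 10 mRNAs were at least 1.5-fold lower, where 24.7% of all tested were, and 0 were at least 1.5-fold higher, where 21.9% were. HSP90AB1 had the lowest log2 value at -1.67, followed by DNAJB1 at -1.26, HSPA9 at -0.95, HSPB1 at -0.82 and DNAJA1 at -0.74. The values for HSP90AA1, HSPE1 and CCT2 shrank to 0.26, 0.22 and 0.25, and HSPA8 was highest at 0.46. On this scale HSP90AB1 and HSP90AA1 still differed in direction, and the calls of HSP90AA1, HSPE1 and CCT2 did not hold. HSPA8, at 45.3% GC, and HSP90AB1, at 47.2%, lie at opposite edges of the same group (45.2 to 47.2%, median 0.12). The adjoining group of lower GC has a median of 0.41, so the ranks of these values depend on where the groups are cut.

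Shares differed less within the in vitro pair and within the pair without DMS. Between K+ and Li+ in vitro, 0 of the 10 mRNAs differed by 1.5-fold (0.147% of tested transcripts were higher in K+ and 0.0% lower), with log2 ratios from 0.01 (DNAJA1) to 0.18 (HSP90AB1). Between the libraries without DMS there were again 0, against 0.295% higher and 0.221% lower, and DNAJB1 had the largest log2 difference at 0.26 in favour of the library labelled Na+. Against the library labelled K+, starved cells were at least 1.5-fold apart for 6 of the mRNAs and unstressed cells for 2 (29.9% higher and 29.5% lower in starved cells, 24.5% and 10.3% in unstressed cells).

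Of 45 further chaperone and cochaperone genes, 22 were tested, with 5 at least 1.5-fold higher, 7 lower, 10 under the threshold and a median log2 ratio of 0.13. These counts lie near or under the background of 29.3% higher and 35.3% lower, so the genes are named as a description. The higher ones were PFDN4 (1.69), VBP1 (1.21) and PFDN5 (0.87) of prefoldin, which hands actin and tubulin to the CCT chaperonin, CCT8 (1.08), and the HSP70 cochaperone BAG2 (0.59). The lower ones were HSF1 (-2.67), the HSP90 cochaperones FKBP4 (-2.23), STIP1 (-1.96), CDC37 (-1.90), AHSA1 (-1.04) and PTGES3 (-0.94), and CCT7 (-1.06). Subunits of the CCT complex thus ranged from -1.06 in CCT7 to 1.08 in CCT8, with CCT2 at 0.95. Relative to transcripts of like GC content these 3 were at -0.42, 0.39 and 0.25, all under 1.5-fold. On that scale 4 of the 22 were at least 1.5-fold higher (21.9% of all tested transcripts were), namely PFDN2 (0.88), PFDN4 (0.85), PFDN5 (1.51) and PFDN6 (1.08). A further 5 were lower (24.7% of all tested), namely PTGES3 (-1.73), FKBP4 (-1.59), HSF1 (-1.24), STIP1 (-0.98) and the HSP70 cochaperone HSPH1 (-0.82). The calls of VBP1, CCT8, BAG2, CDC37, AHSA1 and CCT7 did not hold.

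The minimum of 1 stop per nucleotide in both libraries removes mRNAs that are low in either of them. It left out 21 of the 45 genes, and HSPA2 and GRPEL1 were not analysed here. Of these 21, all with stops in both libraries, 12 were at least 1.5-fold lower and 5 higher. With the minimum lowered to 0.25 stops per nucleotide, 44.1% of 4234 transcripts were lower and 27.2% higher, and GC content was not taken into account for these 21 genes. The inducible HSP70 mRNAs HSPA1A and HSPA1B were among the lowest, with 1535 and 1646 stops in unstressed cells and 173 and 253 in starved cells. Their log2 ratios were -4.03 (-4.27 to -3.81) and -3.59 (-3.78 to -3.40), and as near-identical copies they share reads that unique mapping discards. DNAJB4, another J-domain partner, was the highest at 2.83 (2.51 to 3.16), on 86 and 1127 stops.

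After starvation the combined share of stops at A and C was lower in all 10 mRNAs. Without DMS, A and C took 50.4 to 56.0% of their stops in the library labelled K+, and 75.1 to 82.5% once refolded with K+ and modified. Unstressed cells lay higher at 82.3% (HSP90AB1) to 90.5% (HSPA9), and starved cells at 70.3% (HSP90AB1) to 82.0% (DNAJB1). The unstressed share was above and the starved share below the in vitro K+ share in each mRNA, as in 99.3% and 97.3% of all tested transcripts.

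Starved cells had less of their stops at A and C by a median of 11.2 percentage points over the chaperone mRNAs and 11.8 over all tested transcripts. The loss was at least 10 points in 8 of the 10, with 75.4% of all tested transcripts beyond this limit, from -7.14 points in DNAJB1 to -13.4 in DNAJA1. With counts under 3 rebuilt, 4 of the 10 passed this limit and the range ran from -7.27 in HSPE1 to -12.2 in HSPB1, with DNAJB1 at -10.1 and DNAJA1 at -9.90. Most of it was at C, whose share was at least 5 points lower in all 10, as in 85.2% of all tested transcripts. The largest losses of C were in HSP90AB1, from 35.8 to 20.1%, and in HSPB1, from 47.2 to 31.8%. The share at A was lower in 7 mRNAs (77.1% of all tested) and higher in HSP90AB1, HSPB1 and DNAJB1, by 3.71, 5.02 and 4.20 points. These 3 are also the mRNAs whose share of stops was at least 1.5-fold lower in starved cells. The same 3 lost the most at C (-15.6, -15.4 and -11.3 points) and are the richest in GC of the group. How often these traits go together over all tested transcripts was not computed. HSPA9, with a log2 ratio of -0.26 over all bases, had a change of -5.12 points at A. As the shares sum to 100%, those at G and U were higher, by a median of 8.09 and 3.39 points.

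**Figure D3:**
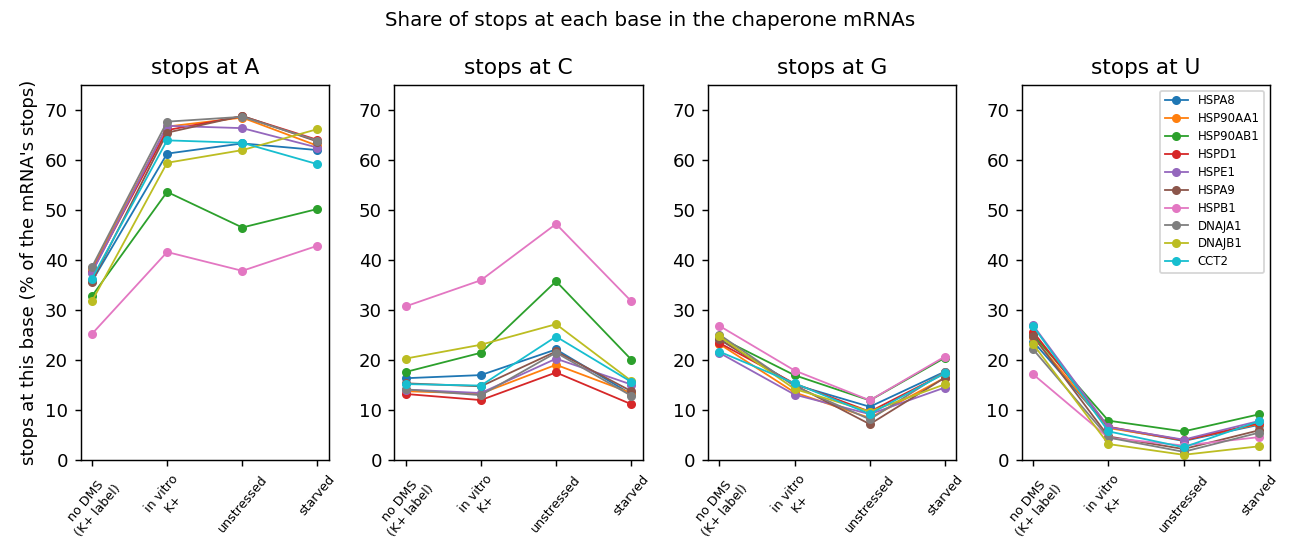
Percent of each mRNA's stops at A, C, G and U in the no-DMS library labelled K+, after refolding in K+, and in unstressed and starved cells (1 line per mRNA). The C panel peaks in unstressed cells for each mRNA, and G and U are lowest there.

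Stops also lay differently along the mRNAs. In vitro in K+ the coding sequence held most of the stops of HSPA8 (83.3%), DNAJA1 (83.5%) and CCT2 (81.3%), and 64.7% of those of HSP90AA1. In unstressed cells these shares were 72.5, 76.8, 68.9 and 37.1%, with the 3′ UTR taking up the difference. The coding share was at least 5 percentage points lower than in vitro for 8 of the 10 mRNAs in unstressed cells and for 8 in starved cells, where 67.3% and 63.9% of all tested transcripts were. HSPA9 (-30.7 points) and HSP90AA1 (-27.6 points) had the widest gaps in unstressed cells, and HSPE1 a gain of 3.65 points.

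After starvation the coding share of HSP90AA1 was 53.7%, 16.6 points above that of unstressed cells, on 47553 and 9199 coding stops. This was the largest change of the group and lay at percentile 97.9 of all tested transcripts. HSPA9 gained 7.70 points, to 45.1%, and the value for HSPE1 was -6.92 points, to 49.3%. At G and U only HSPA9 was at 13.1 points and CCT2 at 5.66, against 3.60 over all bases. At equal depth the gain of HSPA9 was 5.08 points and that of HSP90AA1 16.3. By a limit of 5 points 2 mRNAs were higher and 1 lower, where 23.2% and 16.3% of all tested transcripts were, and 3 were higher at G and U only.

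Within the coding sequence the weight moved too. The coding sequence was divided into 3 equal parts, of which the last held 29.8% (HSPA8) to 62.8% (HSPE1) of the coding stops in vitro in K+ and 45.8 to 63.7% of them in unstressed cells, a gain of at least 5 points in 8 of the 10 mRNAs and in 73.2% of all tested. HSPE1 sets both upper ends. Its coding sequence runs from position 441 to 749, but no nucleotide before 576 was listed in any library. The first part of it thus held no listed stops, which raises the share of the last. In starved cells the share of the last part was at least 5 points lower than in unstressed cells in 5 mRNAs and at least 5 points higher in 3 (28.7% and 21.8% of all tested). HSP90AA1 went from 46.5 to 32.7%, close to its 30.6% in vitro, and HSP90AB1 from 60.4 to 45.9%. CCT2 went from 58.4 to 44.6%. The mRNAs that gained were HSPB1, from 56.6 to 71.0%, DNAJB1, from 55.3 to 65.4%, and HSPA9, from 51.8 to 58.7%.

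**Figure D4:**
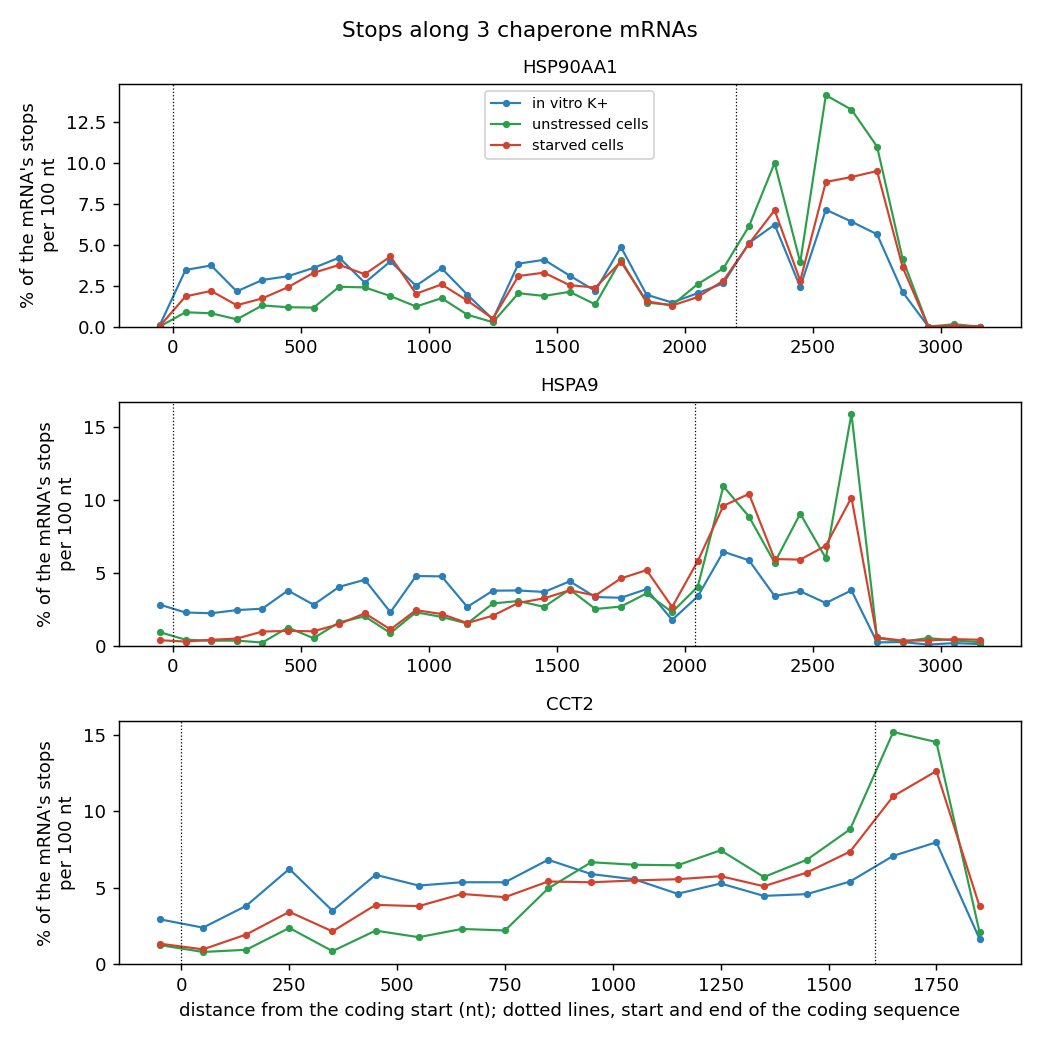
Percent of each mRNA's stops in windows of 100 nt, by distance from the coding start, for HSP90AA1, HSPA9 and CCT2 in vitro in K+ and in unstressed and starved cells. The unstressed line is lowest over the early coding sequence of HSP90AA1 and CCT2 and highest over much of the 3′ UTR of HSP90AA1, and the starved line of HSP90AA1 lies between the others over much of the mRNA.

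Single A and C nucleotides were compared as shares of the A and C stops of their mRNA. Of 4871 positions with at least 10 stops on average, 834 were at least 2-fold higher in starved cells (17.1%, Wilson interval 16.1 to 18.2) and 507 at least 2-fold lower (10.4%, 9.58 to 11.3). Over all tested transcripts these shares were 12.4% and 12.0%. The intervals treat positions as independent, which positions of the same mRNA are not, and HSP90AA1 alone held 286 of the 834. Taken as shares of all stops of the mRNA, G and U included, the order turned, with 13.1% higher and 15.1% lower. The bases went apart, since 21.7% of 3436 A positions were higher and 4.86% lower, whereas 6.13% of 1435 C positions were higher and 23.7% lower. For all tested transcripts the shares were 14.6% and 8.55% at A and 5.76% and 22.6% at C.

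HSP90AA1 stood out with 28.4% of its positions higher, followed by HSP90AB1 with 21.1% and CCT2 with 19.3%. Taken relative to the A and C stops of the same region (5′ UTR, coding or 3′ UTR), the shares were 17.0, 16.5 and 19.1%, so that HSP90AA1 no longer stood apart from the others. At the other end, 7.31% of the HSPB1 positions were higher and 12.7% lower.

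The A or C with the most stops was an A in each mRNA in both in vivo libraries, and lay in the 3′ UTR in 10 mRNAs in unstressed and 9 in starved cells. Over all tested transcripts it was an A in 92.9% and 98.4%, and in the 3′ UTR in 76.3% and 80.6%, of unstressed and starved profiles. In HSPA8 it was position 2256 in unstressed cells with 276 stops (7.12 per 1000 stops of the mRNA) and position 2237 in starved cells with 438 (4.09 per 1000). In HSPB1 both libraries peaked at position 808, at 14.9 and 13.3 per 1000. Among positions with at least 20 stops on average, the lowest ratio was at C in 7 of the 10 mRNAs and the highest at A in 9, where 41.9% and 94.3% of all tested transcripts with at least 2 such positions were. In DNAJB1, with few such positions, the highest log2 ratio was still below 0, at -0.16.

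Several of these extreme positions are shown with 10 nt on each side, the position in capitals, on GRCh37 and the mRNA strand. They were picked for their size, so their folds are a description.
HSPA8 C at codon 622, chr11:122928509-122928529, minus strand: aggaggaatgCctgggggatt
HSP90AB1 C at codon 658, chr6:44221012-44221032, plus strand: ggtggtgctgCtgtttgaaac
HSP90AA1 A at codon 353, chr14:102550814-102550834, minus strand: atctgtttgaAaacagaaaga
CCT2 A at codon 170, chr12:69983318-69983338, plus strand: tatcctcaaaActtcttactc
The HSPA8 C had 74 stops before and 20 after starvation, 8.99-fold lower as a share of A and C stops. The HSP90AB1 C had 57 and 4, 7.68-fold lower. The A positions were not listed in unstressed cells, that is, had at most 2 stops. They had 64 stops in HSP90AA1 and 41 in CCT2 after starvation, which with 2 stops entered for unstressed cells is 10.3-fold and 6.77-fold higher. In the in vitro K+ library the same A positions had 33 and 28 stops, and in the libraries labelled Na+ and K+, without DMS, 51 and 60 in HSP90AA1 and 13 and 15 in CCT2. RT thus stopped at these nucleotides without modification too.

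Profiles of A and C stops had a Pearson r of 0.62 to 0.88 between unstressed and starved cells in 9 of the mRNAs, and of 0.84 to 0.96 between K+ and Li+ in vitro. DNAJB1, with 35 positions, had -0.17 and 0.46. These correlations run over positions of 1 mRNA, which share base composition and depth. With the in vitro K+ profile, r was 0.40 to 0.89 for unstressed and 0.53 to 0.88 for starved cells in the 9 mRNAs other than DNAJB1. It was higher in starved cells in 9 of the 10, with HSPE1 (0.89 and 0.88) the exception, where 55.6% of 1146 tested transcripts with at least 30 positions were higher. The 10 profiles rest on 35 to 1015 positions each, and the widest gaps were in DNAJB1 (-0.03 and 0.25) and HSP90AB1 (0.47 and 0.72). Profiles in starved cells were also closer to the library labelled K+, without DMS, in every mRNA but DNAJB1 (0.24 unstressed and -0.06 starved). Against that library r was 0.31 and 0.62 in HSP90AB1 and 0.07 and 0.42 in HSPA9. This comparison was not run over all tested transcripts.

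A strong stop was a G whose count was at least 10 times the mean of its transcript (the enrichment E) in either library without DMS. There were 14 such stops, 6 in DNAJB1, 5 in HSP90AB1 and 3 in HSPD1, and the other 7 mRNAs had 0. In the library labelled Na+, 3 of the 10 mRNAs had a strong stop, where 43.9% of transcripts with enough stops did, and in the library labelled K+ 2 did, where 15.3% did. By the labels 0 stops were K+-dependent, that is, at least 2-fold stronger in the library labelled K+ (4.87% of transcripts had such a stop). In the opposite direction 8 stops in HSPD1 and DNAJB1 were at least 2-fold stronger in the library labelled Na+ (37.9% of transcripts), and with the cation labels exchanged these 8 would be the K+-dependent ones.

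HSPD1 position 1849 had 1072 stops in the library labelled Na+, an E of 30.9, but 26 (0.71) in that labelled K+. In vitro the counts were 85 in K+ (3.73) and 79 in Li+ (2.49), and in vivo 22 in unstressed (2.00) and 65 in starved cells (2.83). Only the library labelled Na+ was above 10. The neighbouring stops at 1846 and 1848 had an E of 18.3 and 13.5 there and of 2.16 and 1.56 in the library labelled K+. The 45 nt up to each of these stops hold 4 G runs, each 2 nt or longer and spaced by 9 nt at most, a pattern that 95.7% of tested transcripts have somewhere.

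DNAJB1 position 1170, in exon 3, had 632 stops in the library labelled Na+, an E of 121, but 7 (1.51) in that labelled K+. After refolding it had 19 with K+ (5.96) and 30 with Li+ (7.21). Living cells gave 4 when unstressed (1.89) and 10 when starved (9.01), so the in vivo counts rest on few stops, with intervals of 1.1 to 10.2 and 4.8 to 18.4. The stops at 1165, 1166 and 1169 in the same stretch had an E of 59.9, 83.3 and 28.4 in the library labelled Na+. In the library labelled K+ the E was 2.37 at position 1169, and the other 2 were not listed. This stretch is the only one in the 10 mRNAs with 4 G runs of 3 nt or longer spaced by 7 nt at most, which 14.1% of tested transcripts hold. Position 2096 had 129 stops (24.8) in the library labelled Na+ and was not listed in the library labelled K+ or in unstressed cells. It was the only one of the 8 with an E at least 2-fold higher in K+ than in Li+ in vitro (2.17-fold), on 5 and 3 stops, and had 4 stops in starved cells, too few to place its level.

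**Figure D5:**
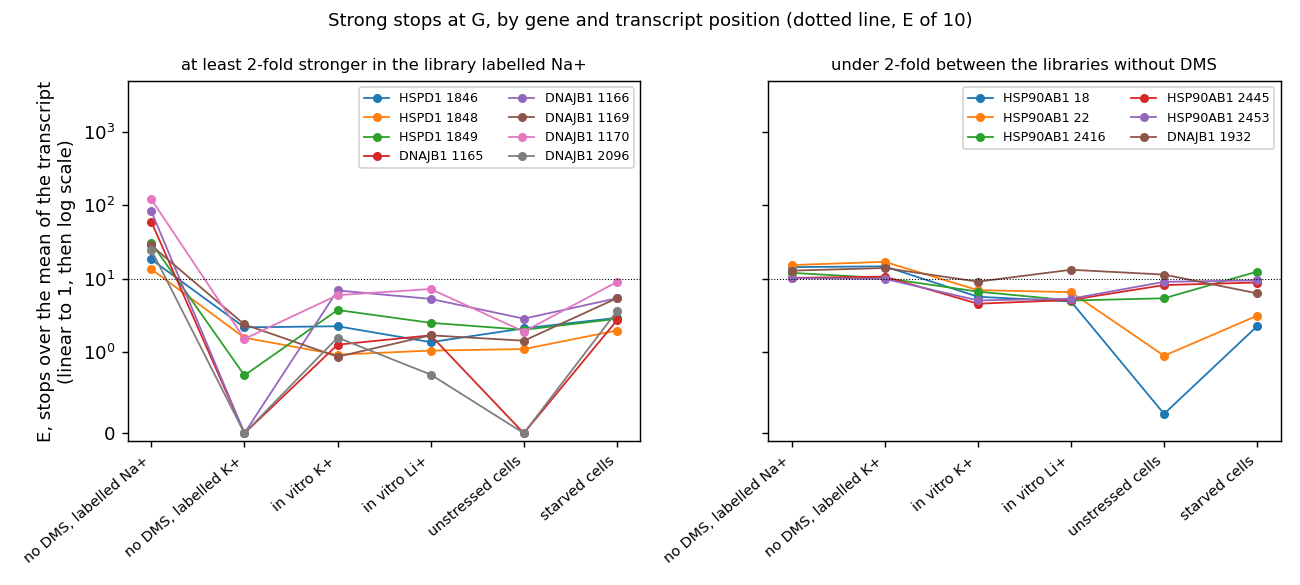
E, the stops at a nucleotide over the mean of its transcript (linear to 1, then log scale), of the 14 strong stops at G in the 6 libraries, with 8 stops at least 2-fold stronger in the library labelled Na+ on the left and 6 others on the right. On the left, only the library labelled Na+ lies above the dotted line at 10.

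The remaining 6 strong stops differed by under 2-fold between the libraries without DMS and held neither motif. HSP90AB1 positions 18 and 22, at the 5′ end, reached 14.4 and 15.3 by E in the library labelled Na+, and 14.7 and 17.0 in that labelled K+. In unstressed cells they were at 0.24 and 0.95 and in starved cells at 2.25 and 3.12, on 3, 12, 18 and 25 stops. Its 3′ UTR stops at 2416, 2445 and 2453 and DNAJB1 position 1932 stayed between 4.54 and 13.98 in all 6 libraries. The E of HSP90AB1 is raised by the unlisted stretches that lower its mean.

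E at strong stops at G was higher after starvation in 13 of 14 cases, with a median log2 ratio of 1.07, and in 88.5% of 1597 such stops over all tested transcripts. The mean of the transcript in E contains the A and C stops, whose share was lower in starved cells. Relative to other G nucleotides of the same mRNA 9 of 14 were higher, where 69.3% of all were, and the median was 0.38. Of the 8 stops stronger in the library labelled Na+, 8 were higher by E (85.8% of 833 over all tested transcripts) and 6 relative to other G (75.3%). Of these 6, 5 were in DNAJB1, on at most 6 stops in unstressed and 3 to 10 in starved cells. In HSPD1, with more stops, 1 of 3 was higher. There the same-base ratio at position 1849 was 4.79 in unstressed and 4.04 in starved cells, against 2.00 and 2.83 for E, so the direction turned with the denominator.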

How the data were processed

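RT stops were profiled in U2OS cells in 6 libraries, 1 per condition. Reads were de-duplicated (SAMtools), stripped of adapters and aligned by the authors with Bowtie to transcripts of hg19, keeping unique hits with no mismatch; versions are not given in the sources used here. They deposited the RT stop count of each nucleotide with at least 3 stops. They also deposited a ratio, which in the files is the count over the mean of same-base nucleotides of that mRNA. E was rebuilt here by weighting these means with base composition in GENCODE release 44 on GRCh37. Of 15739 transcripts, 11031 had at least 15 listed bases and 10355 (93.9%) were matched. RefSeq names were taken from a gene table.

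The share of an mRNA is its listed stops over all listed stops of the library, called at 1.5-fold, with exact binomial intervals. Positions at A or C with at least 10 stops on average were called at 2-fold, with 2 stops entered where a position was not listed. Strong stops, K+-dependence (2-fold) and motifs in the 45 nt up to a stop are as defined in the report; a G stop not listed was counted as 0, and 1 was added to counts for in vivo ratios. With 1 library per condition no test was run. Named were the members, all strong G stops, and the A or C with the most stops and the largest rise and fall in each mRNA. The members and lists were chosen with earlier results of these data known. In total 25 alternatives were set first and 4 added after seeing the data. The calculation was tested on simulated data. Software was matplotlib 3.10.9, scipy 1.17.1, pandas 2.3.3, numpy 2.4.6 and Python 3.11.15.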

Additional observations from a re-analysis of the deposited data

How the results depend on the processing

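No paired analysis was possible because each condition had 1 library and the labels number no replicates. The depth allows no statement on variation between cultures, and DNAJB1 in starved cells (1475 stops) is the thinnest profile.

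The 3 higher and 3 lower mRNAs became 4 and 3 with counts under 3 rebuilt and at equal depth, where HSPA8 passed 1.5-fold. The median log2 ratio of 0.13 was 0.20 with rebuilt counts, 0.27 at G and U only, 0.26 at equal depth, -0.0036 in the last 500 nt (added after seeing the data) and -0.61 relative to transcripts of like GC content (also added), which left 0 higher and 5 lower. The background was 44.1% lower with a transcript minimum of 0.25, and 37.0% higher and 25.4% lower with a minimum of 4. The A and C loss of 11.2 points (-11.2) was -9.74 with rebuilt counts and was found in all 10 mRNAs in each of the 3 alternatives run.

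Positions were 11.9% lower with at least 5 stops, 15.7% higher and 8.91% lower with at least 20, 13.1% higher and 15.1% lower relative to all stops of the transcript, 16.1% higher at equal depth, 7.23% higher and 3.04% lower at 3-fold, and 14.2% higher relative to the same region (added). Exchanging the cations gave 8 K+-dependent stops in place of 0. The libraries labelled Na+ and K+ had 70 and 54 strong stops with E of at least 5, and 6 and 0 with E of at least 20. By the deposited ratio 8 were strong in the library labelled K+ in place of 5. The median in vivo log2 ratio of E at strong stops fell from 1.07 to 0.38 by the deposited ratio and to 0.39 relative to G and U. The median change in coding share, 2.78 points, was 1.47 at G and U only, and that of the last of 3 equal parts of the coding sequence (added) was -5.20. For values that moved, the cause was not tested beyond what each alternative changes by construction.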
